A study of Mus musculus with 12 samples.

Results

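The arcuate nucleus (ARC) of wild-type (WT) mice was described from 5 libraries, WT 1 to WT 5, as a baseline transcriptome with no comparison of genotypes. The genes described were the 13411 genes, of 38283 in the deposited table, with a mean over the 5 libraries of at least 1 FPKM. FPKM counts sequenced fragments relative to the length of the transcript and the depth of the library, so that levels of different genes are compared per length. Symbols starting Mir, SNOR, U plus a digit or 7SK, which name short RNAs, were left out, and this removed 342 genes that were otherwise over the limit.

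The ARC lies at the base of the hypothalamus beside the third ventricle and the median eminence, where circulating hormones reach neurons with little barrier. It is best known for a pair of opposed neuron types in the control of feeding. AGRP neurons make agouti-related peptide, neuropeptide Y and GABA and drive food intake, whereas POMC neurons make pro-opiomelanocortin, from which the melanocortin α-MSH is cut, and restrain it. Other ARC neurons release hormones that govern the pituitary, among them growth hormone-releasing hormone, somatostatin, dopamine and kisspeptin, and tanycytes, elongated glial cells that line the ventricle floor, border the nucleus.

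Each library came from 1 male C57BL/6 mouse with the wild-type γ2 subunit of AMP-activated protein kinase (AMPK), aged 8 weeks and fed ad libitum. Brains were cut into coronal cryosections, the ARC was cut out by laser-capture microdissection, and its RNA was amplified across the whole transcriptome before sequencing. A captured area holds neurons, glia, vessels and fibres together, so fewer cells of a type and less RNA per cell cannot be told apart in any value below. Errors are the SD of the 5 libraries (n = 5) unless another is named, and CV is the SD divided by the mean.

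Of the 13411 genes, 11935 (89.0%) were protein-coding in the GENCODE annotation. Among the protein-coding genes, 6759 (56.6%) lay between 1 and 10 FPKM, 4648 (38.9%) between 10 and 100, 504 (4.22%) between 100 and 1000, and 24 (0.201%) at 1000 or more. The 15 highest values of all belonged mostly to short non-coding RNAs. *Gm12563* alone stood at 8620352 ± 1032163 FPKM and *Gm15662* at 1058980 ± 72476, and the list went on through 6 mitochondrial tRNAs (*mt-Ts1*, *mt-Tl1*, *mt-Te*, *mt-Tc*, *mt-Tm* and *mt-Ty* at or above 8911 FPKM) to *mt-Atp8*, the only protein-coding gene among them, at 9131 ± 3600. FPKM divides by transcript length, so that very short transcripts can reach such values, and the 10 highest genes held between 96.1% and 98.1% of each library's FPKM sum, so ranks below are also given among protein-coding genes.

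The libraries differed in how many genes were above 0 and in their general level. Genes above 0 numbered 15835 in WT 1 and 16467 in WT 2 and between 18141 and 18468 in WT 3, WT 4 and WT 5. The low steps of the values pointed the same way, since the fifth percentile of FPKM times transcript length in kb, over genes with a single annotated transcript, was 0.218, 0.224, 0.0947, 0.1002 and 0.137 in WT 1 to WT 5, where a larger step would go with fewer reads. Rank correlations between libraries across genes, which are not independent replicates, ran from 0.781 to 0.871, and the 3 pairs among WT 3, WT 4 and WT 5 held the highest values, 0.853 to 0.871. The median protein-coding gene deviated from its own 5-library mean of log2(FPKM + 1) by -0.21 in WT 3 and by 0.14 in WT 5, and 36% of protein-coding genes were lowest in WT 3. Y-linked transcripts were present in every library, and *Xist*, the X-inactivation RNA of female cells, averaged 0.0029 FPKM.

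The 3 genes that define the main feeding neurons were abundant in every library. *Npy* (chromosome 6, 49822710 to 49829507, GRCm38.p6), which encodes neuropeptide Y, read 1576, 1146, 514, 980.03 and 856 FPKM in WT 1 to WT 5. *Pomc* (chromosome 12, 3954945 to 3960643), the melanocortin precursor, read 998, 1350, 189.7, 356 and 862 FPKM, and *Agrp* (chromosome 8, 105566695 to 105579845), which encodes the antagonist of the melanocortin receptors, read 499, 347, 181, 272 and 208 FPKM. WT 3 was the lowest library for all 3, WT 1 the highest for *Npy* and *Agrp*, and WT 2 the highest for *Pomc*. *Cartpt* (chromosome 13, 99898483 to 99910179), whose peptide CART is made in POMC neurons and elsewhere in the hypothalamus, read 710.2, 869, 165, 376 and 623 FPKM, with WT 3 again lowest. Their means were 1014 ± 390.4 FPKM for *Npy*, 751 ± 475 for *Pomc*, 549 ± 279 for *Cartpt* and 301 ± 128 for *Agrp*, which placed them at ranks 58, 78, 112 and 216 of all 13411 genes and at ranks 23, 36, 64 and 155 of the protein-coding ones. Together these 4 transcripts held 0.715 ± 0.227% of the FPKM sum over protein-coding genes, and 0.0236 ± 0.00948% of the sum over all genes described.

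The most abundant peptide transcript was not a feeding peptide but *Sst* (chromosome 16, 23889573 to 23891342), which encodes somatostatin, the inhibitor of growth hormone release, at 2004, 2003, 714, 1490 and 1450 FPKM in WT 1 to WT 5. WT 1 and WT 2 were equal within 1 FPKM and WT 3 read less than any other library. *Ghrh* (chromosome 2, 157329496 to 157348725), whose product releases growth hormone, read 409, 481, 97.4, 146 and 418 FPKM, with WT 3 and WT 4 below the other 3 libraries. *Tac2* (chromosome 10, 127724478 to 127731768), the neurokinin B gene of the neurons that also make kisspeptin and dynorphin, read 211, 239.5, 109, 184 and 138 FPKM, and *Gal*, which encodes galanin, read 172, 169.8, 44.8, 66.2 and 122. Both were lowest in WT 3.

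The 4 most abundant peptide transcripts all had their lowest level in WT 3, and a part of promoter sequence in this was not tested. The promoter windows of these 4 genes are shown as a description only. They were taken from RefSeq (GRCm38.p6), which gave a window for *Sst*, *Npy*, *Pomc* and *Cartpt* and none for *Agrp*. Each runs 5′ to 3′ on the gene's strand from 250 bases before to 50 bases after a transcript start, in lower case, with capitals marking the TATA box TATAAA or the cyclic AMP response element TGACGTCA, searched on both strands. The start is the first base of the gene interval given above for *Npy* and *Pomc*, but lies 498 bases inside that of *Sst* and 9496 bases inside that of *Cartpt*.
Sst, chr16:23890795-23891094, minus strand: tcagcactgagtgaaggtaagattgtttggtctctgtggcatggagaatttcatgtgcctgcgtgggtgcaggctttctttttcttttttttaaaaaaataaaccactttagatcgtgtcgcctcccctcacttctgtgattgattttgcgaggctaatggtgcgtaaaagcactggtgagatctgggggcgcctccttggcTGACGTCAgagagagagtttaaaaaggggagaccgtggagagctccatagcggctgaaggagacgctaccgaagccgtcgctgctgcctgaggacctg
Npy, chr6:49822460-49822759, plus strand: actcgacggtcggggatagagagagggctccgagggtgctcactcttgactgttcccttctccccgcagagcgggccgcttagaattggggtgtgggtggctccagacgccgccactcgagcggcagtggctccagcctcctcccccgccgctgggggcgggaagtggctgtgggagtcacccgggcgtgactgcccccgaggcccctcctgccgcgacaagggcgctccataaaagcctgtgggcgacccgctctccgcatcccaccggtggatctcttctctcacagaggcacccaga
Pomc, chr12:3954695-3954994, plus strand: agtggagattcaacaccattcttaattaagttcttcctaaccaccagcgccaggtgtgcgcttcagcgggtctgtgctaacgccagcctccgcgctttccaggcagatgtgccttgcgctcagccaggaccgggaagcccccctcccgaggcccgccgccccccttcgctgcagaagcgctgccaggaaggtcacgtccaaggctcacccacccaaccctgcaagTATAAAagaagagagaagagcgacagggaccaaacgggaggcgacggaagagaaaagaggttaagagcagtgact
Cartpt, chr13:99900634-99900933, minus strand: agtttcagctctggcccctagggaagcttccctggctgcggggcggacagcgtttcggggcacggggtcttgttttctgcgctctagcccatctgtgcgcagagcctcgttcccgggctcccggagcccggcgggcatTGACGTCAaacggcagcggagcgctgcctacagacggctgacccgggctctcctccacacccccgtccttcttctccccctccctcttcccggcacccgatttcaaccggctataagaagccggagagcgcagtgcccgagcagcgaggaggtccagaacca

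*Sst* and *Cartpt* hold TGACGTCA, beginning 48 and 112 bases before the start, and *Pomc* holds TATAAA, beginning 25 bases before it. Of all 32851 windows of this length, 1.79% hold TGACGTCA and 13.6% hold TATAAA on either strand. Neither string of letters is in the *Npy* window, and a match is a description of the sequence only.

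**Figure D1:**
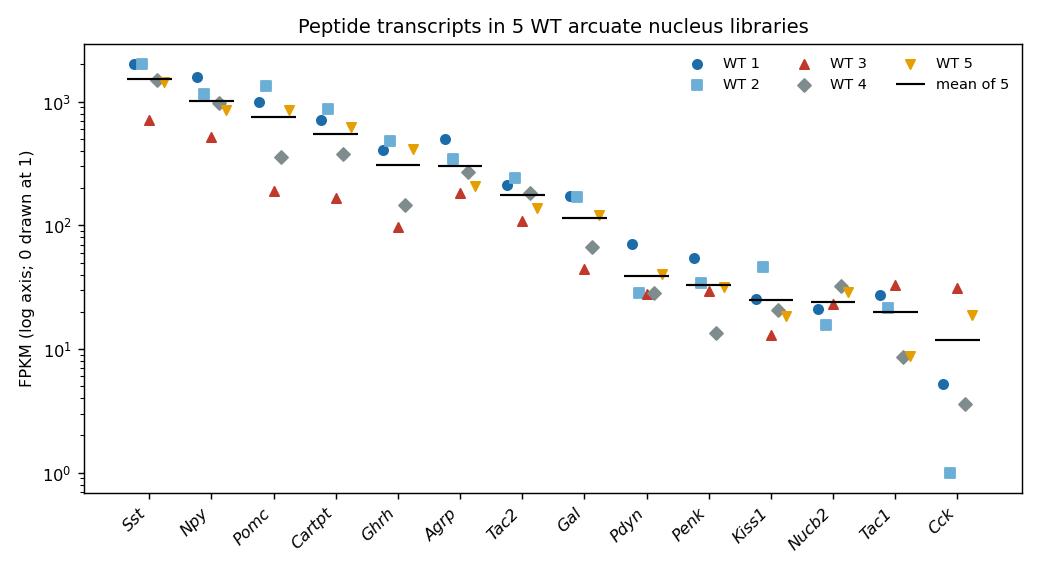
FPKM on a log axis of the 14 arcuate peptide transcripts with a mean of at least 10 FPKM, 1 point per WT library and a black bar for the mean of 5. *Sst* lies highest at a mean of 1532 FPKM, WT 3 is the lowest library for 10 of the 14, and *Cck* and *Tac1* are instead highest in WT 3.

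The order of the peptides held up only in part against the spread within libraries. *Sst* exceeded *Npy* in 5 of 5 libraries, by 0.60 ± 0.19 on the log2(FPKM + 1) scale. *Npy* exceeded *Pomc* in 3 of 5, and this pair differed by less than its spread (0.66 ± 0.79). *Pomc* exceeded *Cartpt* in 4 of 5 (0.34 ± 0.28), and *Cartpt* exceeded *Ghrh* in 5 of 5 (0.87 ± 0.29). *Ghrh* and *Agrp*, at means of 310.2 ± 175 and 301 ± 128 FPKM, could not be ordered, with *Ghrh* higher in 2 of 5 libraries. *Agrp* exceeded *Tac2* (176 ± 52.9), *Tac2* exceeded *Gal* (115 ± 58.4) and *Gal* exceeded *Pdyn* (39.1 ± 18.2), the prodynorphin gene, each in 5 of 5 libraries and by more than 1 SD. From *Pdyn* down through *Penk* (proenkephalin, 32.7 ± 14.7), *Kiss1* (kisspeptin, 24.8 ± 12.9), *Nucb2* (the nesfatin precursor, 24.2 ± 6.47), *Tac1* (substance P and neurokinin A, 19.9 ± 10.9) and *Cck* (cholecystokinin, 11.7 ± 12.96), no neighbours in the order differed beyond their spread.

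A CV has to be read against the level, since the median CV of protein-coding genes fell by level from 0.542 at 1 to 3 FPKM to 0.302 at 10 to 30 FPKM and 0.26 at 100 to 300 FPKM. Each gene was therefore set beside the 400 genes nearest to it in mean FPKM, and its percentile is the share of those with a smaller CV. Of the 14 peptide transcripts of at least 10 FPKM, 13 had a CV above the median of their 400 neighbours, and their own median CV was 0.487 against a median of 0.286 over the neighbours' medians. *Pomc* had a CV of 0.63 (percentile 86), *Ghrh* 0.56 (84.5), *Cartpt* 0.51 (81.8), *Agrp* 0.42 (77) and *Npy* 0.38 (69.8). *Nucb2* was the exception, with a CV of 0.27 at percentile 44.

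Most peptide transcripts had their lowest value in the same library. Of the 14, 10 were lowest in WT 3, where 36% of all protein-coding genes were lowest. Their summed level was 6783, 6751, 2174, 3977 and 4824 FPKM in WT 1 to WT 5, or 1.89, 1.997, 0.934, 1.36 and 1.58% of the sum over nuclear protein-coding genes, so WT 3 held the smallest share as well as the smallest sum. *Penk* was lowest in WT 4 (54.7, 34.04, 29.7, 13.4 and 31.8 FPKM in WT 1 to WT 5). *Tac1* (27.6, 21.6, 32.7, 8.61 and 8.81 FPKM) was highest in WT 3 and lowest in WT 4 and WT 5, and *Cck* (5.22, 0, 31.2, 3.61 and 18.7 FPKM) was listed at 0 in WT 2 and was highest in WT 3.

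Transcript length moved with the same libraries. Among the nuclear protein-coding genes of at least 10 FPKM, the 72 with an annotated transcript under 500 nt deviated by a median of -0.602 in WT 3 and -0.38 in WT 5 on the log2(FPKM + 1) scale and by 0.49 in WT 1, whereas the 1628 of 4000 nt or more deviated by -0.18, 0.21 and 0.05. Of the 13 peptides with an annotated length, 8 were shorter than 1000 nt. After the median deviation of genes of like length was taken off, a step chosen after the data were seen, the SD of the deviations was smaller for 10 of the 13, and its median went from 0.70 to 0.59. The median deviation of the 13 in WT 3 went from -0.63 to -0.10, with 9 of the 13 below 0 against 11 before. The deviation of *Agrp* in WT 3 went from -0.63 to -0.10 and that of *Tac2* from -0.63 to -0.10. *Pomc* kept -1.13 of its -1.66, *Cartpt* -1.10 of its -1.51 and *Ghrh* -0.87 of its -1.40. The part of transcript length in the other results was not tested.

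**Figure D2:**
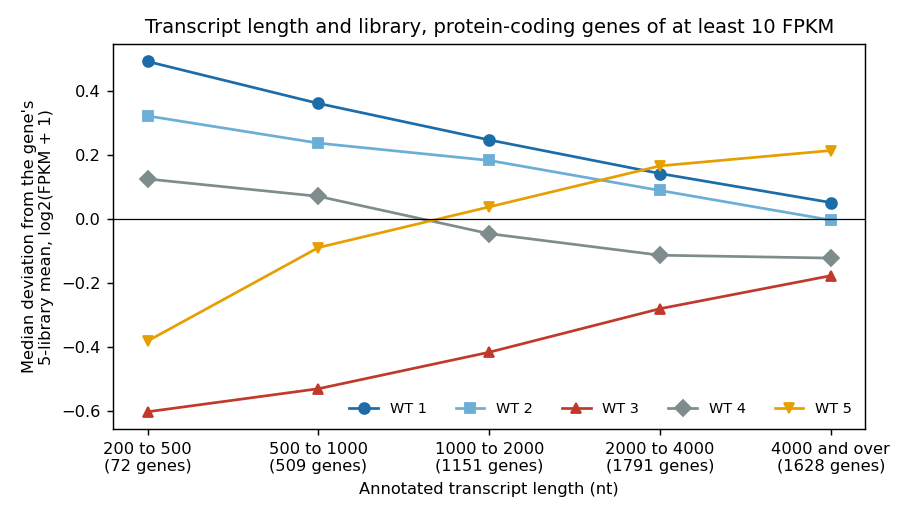
Median deviation of nuclear protein-coding genes of at least 10 FPKM from their own 5-library mean, on the log2(FPKM + 1) scale, by annotated transcript length (nt, with the number of genes) and WT library. WT 3 and WT 5 climb with length and WT 1, WT 2 and WT 4 decline with it, and the shortest class spans from -0.60 in WT 3 to 0.49 in WT 1.

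Of 26 peptides and related genes listed for the ARC beside the 4 feeding peptides, 17 passed 1 FPKM, 10 of them the peptides just described. Between 1 and 10 FPKM lay, among others, *Nmb* (neuromedin B, 9.66 ± 5.44), *Grp* (gastrin-releasing peptide, 2.81 ± 3.68), *Rln3* (relaxin 3, 1.92 ± 2.68), *Adcyap1* (PACAP, 1.43 ± 0.444) and *Nts* (neurotensin, 1.33 ± 1.21). *Galp*, the galanin-like peptide gene, was listed at 0 in 4 libraries and at 14.4 FPKM in WT 5. *Nmu* and *Vip* averaged 0.41 and 0.12 FPKM, and *Npw*, *Npvf* and *Npff* were listed at 0 in all 5 libraries.

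Genes of other hypothalamic neurons, mostly peptides, gave a check on the dissection. Of 11 such genes in the table, 5 passed 1 FPKM. *Oxt* (oxytocin) read 5.68, 65.9, 66.8, 3.75 and 646 FPKM in WT 1 to WT 5 and *Avp* (vasopressin) 17.5, 2.35, 12.8, 0.916 and 380.1 FPKM, so WT 5 stood above all other libraries for both transcripts of the magnocellular neurons. *Hdc*, the enzyme of histamine synthesis, read 6.13, 2.17, 19.7, 1.77 and 0.111 FPKM, highest in WT 3, and *Gnrh1* averaged 7.55 ± 6.75 and *Trh* 5.65 ± 2.71. Of the markers of the lateral hypothalamus, *Pmch* averaged 0.38 FPKM and *Hcrt* was listed at 0. *Crh* of the paraventricular nucleus averaged 0.05, and *Nr5a1* of the ventromedial nucleus averaged 0.02. The summed level of the 11 genes was 36.5, 84.5, 117, 29.7 and 1034 FPKM, and its part in the values of other lists was not tested.

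Transcripts of the list for the machinery that cuts and stores peptides were abundant, and most were steadier than the peptides themselves. The list is not only this machinery, since it also holds *Nnat* and *Peg3*, each over 100 FPKM, and *Peg3* is also listed as a general brain factor. All 17 listed genes exceeded 10 FPKM and 8 exceeded 100 FPKM, with a median CV of 0.241 and only 6 of 17 above the median of their neighbours in level. *Chgb*, which encodes the granule protein secretogranin 1, read 138, 143, 135, 119 and 118 FPKM in WT 1 to WT 5, for a CV of 0.087 at percentile 0.25. *Scg2* (secretogranin 2) had a mean of 270.03 ± 38.3 FPKM and a CV of 0.14, and *Cpe*, the carboxypeptidase that trims peptide ends, a mean of 265 ± 64.1. The prohormone convertases were far lower, at 14.8 ± 3.55 FPKM for *Pcsk1* and 15.04 ± 3.42 for *Pcsk2*, and their log2 ratio of 0.03 ± 0.43 was within its spread.

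Within this list some transcripts were lowest in WT 3, as most peptides were. *Nnat* (neuronatin, CV 0.69), the most abundant protein-coding transcript of the nuclear genome, read 7609, 8153, 2018, 2751 and 2030 FPKM, with WT 1 and WT 2 far above the other 3 libraries. *Resp18*, a secretory granule protein, read 784, 612, 249.7, 414 and 398 FPKM and *Scg5*, the chaperone of convertase 2, 123, 102, 48.7, 65.8 and 75, both lowest in WT 3. *Vgf*, a granin-like precursor, had a CV of 0.67 (percentile 93.5), with 155 FPKM in WT 2 against 30 to 71.8 elsewhere.

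Among the receptors for metabolic hormones, 18 of 21 passed 1 FPKM and 8 passed 10 FPKM. *Prlr*, the prolactin receptor, was the highest, with 41.7, 28.7, 17.5, 39.2 and 29.4 FPKM in WT 1 to WT 5, and it exceeded the next gene, *Ghr* (growth hormone receptor, 19.01 ± 5.51), in 5 of 5 libraries. *Ghr*, *Glp1r* (the GLP-1 receptor, 18.9 ± 6.61) and *Calcr* (calcitonin receptor, 18.3 ± 4.47) were not separated beyond their spread. *Insr*, the insulin receptor, averaged 11.7 ± 7.88 FPKM and *Irs2*, its docking protein, 12.6 ± 5.65.

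*Lepr*, the leptin receptor, read 18.98, 3.05, 4.45, 2.28 and 4.42 FPKM, so that 1 library, WT 1, carried the mean of 6.64 ± 6.96 and the other 4 lay between 2.28 and 4.45. Its CV of 1.05 was at percentile 96.8 of its neighbours in level. *Insr* was also highest in WT 1 (25.3, 7.896, 6.73, 6.81 and 11.8 FPKM), and the log2 ratio of *Lepr* to *Insr* was negative in 5 of 5 libraries (-0.91 ± 0.42). *Ghsr*, the ghrelin receptor, was steadier at 5.16, 3.45, 3.71, 4.72 and 5.69 FPKM (CV 0.21, percentile 9), and *Lepr* and *Ghsr* could not be ordered. *Igf1r*, at 3.69 ± 0.473 FPKM, had the smallest CV of the list, 0.13. *Gipr* was listed at 0 and *Gfral* averaged 0.099 FPKM.

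Receptors for peptides were mostly low, with 29 of 43 over 1 FPKM, 8 over 10 FPKM and a median of 4.31 FPKM against 7.47 over all genes described. *Ntsr2*, a neurotensin receptor of astrocytes, averaged 62.7 ± 23.97 FPKM, *Adcyap1r1* (PACAP receptor) 52.1 ± 10.96, *Oprl1* (nociceptin receptor) 38.3 ± 15.6 and *Oprm1* (μ-opioid receptor) 21.99 ± 9.395. *Oprl1* exceeded *Oprm1* in 5 of 5 libraries. Of the receptors for neuropeptide Y, *Npy1r* averaged 16.4 ± 7.48 FPKM and *Npy2r*, the autoreceptor of AGRP neurons, 16.3 ± 5.56, with *Npy2r* higher in 4 of 5 libraries but the pair within its spread, and *Npy1r* exceeded *Npy5r* (4.29 ± 2.69) in 5 of 5.

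The melanocortin receptors were unequal. *Mc3r*, which is made by ARC neurons themselves, read 6.42, 7.17, 4.54, 5.65 and 9.12 FPKM, whereas *Mc4r*, best known from the paraventricular nucleus, averaged 0.32 FPKM and was under the limit. The ratio of *Mc4r* to *Mc3r* was -2.55 ± 0.45 on the log2(FPKM + 1) scale, which understates it at these levels. The ratio of plain FPKM lay between 0 and 0.157. The somatostatin receptors over 1 FPKM were *Sstr1* (12.99 ± 4.49), *Sstr2* (4.54 ± 1.43), *Sstr4* (4.33 ± 2.96), *Sstr5* (1.21 ± 0.4899) and *Sstr3* (1.11 ± 0.799), and *Sstr1* exceeded *Gpr83*, the next receptor in the order, in 5 of 5 libraries (0.90 ± 0.50). *Crhr2* stood out with 15.9, 2.38, 2.8, 1.96 and 0.915 FPKM, high in WT 1 alone. The receptors for galanin *Galr1* and *Galr2* and for kisspeptin *Kiss1r* averaged 0.046, 0.64 and 0.94 FPKM.

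Amine and cannabinoid receptors were lower still, and 11 of 15 passed 1 FPKM. Only *Hrh3*, the histamine autoreceptor, passed 10 FPKM, at 44.5, 23.5, 24.8, 27.6 and 33.03 FPKM in WT 1 to WT 5. *Drd2* (dopamine) averaged 5.22 ± 1.73 FPKM and *Htr2c* (serotonin), a receptor of POMC neurons, 1.897 ± 0.583. *Cnr1*, the cannabinoid receptor, read 3.12, 15.7, 4.17, 3.27 and 4.63 FPKM, high in WT 2, and was below *Oprm1* in 5 of 5 libraries.

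Of 32 nuclear receptors, 26 passed 1 FPKM and 6 passed 10 FPKM. *Thra*, the α thyroid hormone receptor, read 75.6, 115, 48.1, 53.2 and 84.2 FPKM and exceeded *Thrb* (9.74 ± 1.48) in 5 of 5 libraries. *Nr1d1*, a repressor of the circadian clock, averaged 29.1 ± 5.97 FPKM, *Esr1* (oestrogen receptor α) 18.3 ± 6.46, *Nr3c1* (glucocorticoid receptor) 16.6 ± 3.78 and *Pgr* (progesterone receptor) 7.11 ± 3.15. *Esr2* averaged 0.09 FPKM and *Nr3c1* exceeded *Nr3c2*, the mineralocorticoid receptor (5.54 ± 3.95), in 5 of 5. *Nr2f6* read 2.65, 89.6, 3.94, 12.4 and 5.52 FPKM, so that WT 2 carried its mean. *Nr4a2* read 54.7, 0.795, 6.23, 30.5 and 12.3 FPKM, highest in WT 1 and next in WT 4.

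The list of ARC transcription factors was led by *Tbx3*, which maintains the identity of ARC peptide neurons, at 158, 134, 41.6, 32.97 and 70.3 FPKM in WT 1 to WT 5. The list is not only ARC markers, since it also holds *Stat3*, *Clock*, *Creb1*, *Egr1*, *Fos* and *Sim1*. WT 1 and WT 2 were above the other 3 libraries, and the CV of 0.64 was at percentile 91.2. Of 32 listed factors in the table, 28 passed 1 FPKM and 6 passed 10 FPKM, with *Stat3*, the effector of the leptin receptor, at 36.7 ± 7.82, *Isl1*, needed for POMC neurons, at 35.8 ± 12.2, *Bsx*, a homeobox factor of AGRP neurons, at 26.8 ± 14.6, *Otp* at 15.01 ± 5.14 and *Nkx2-1* at 14 ± 4.601. *Tbx3* exceeded *Stat3*, *Isl1* exceeded *Bsx* and *Nkx2-1* exceeded *Dlx5* (9.94 ± 4.58) in 5 of 5 libraries, while the pairs *Stat3* and *Isl1* and *Otp* and *Nkx2-1* were within their spread.

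*Bsx* read 25.2, 52.4, 17.3, 21.2 and 17.9 FPKM, highest in WT 2, whereas *Agrp* was highest in WT 1. *Foxo1*, the insulin-regulated factor that controls *Agrp* and *Pomc*, read 8.395, 9.01, 9.78, 10.4 and 9.55 FPKM, for a CV of 0.082 that was smaller than that of all 400 genes nearest to it in level. *Prdm12* (2.59 ± 1.72) and *Nhlh2* (1.795 ± 0.5501) were low but over the limit, and *Sim1*, the factor of paraventricular neurons, averaged 0.065 FPKM.

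Factors of other hypothalamic nuclei were mostly under the limit, with 7 of 21 over 1 FPKM, and *Otp* and *Sox14* of these 7 are also in the ARC list. *Six3* (35.7 ± 11.1), *Tcf7l2* (22.9 ± 5.82) and *Otp* led them, whereas *Fezf1* of the ventromedial nucleus, *Foxb1* of the mammillary body and *Lhx9* averaged 0.20, 0.31 and 0.014 FPKM and *Barhl1* was listed at 0. Among 37 general brain factors, 32 passed, led by the imprinted *Peg3* at 239.8, 194, 178, 196 and 266 FPKM and *Zbtb20* at 99.5, 101, 143, 188 and 126 FPKM, both over all others in 5 of 5 libraries. *Tbr1* and *Neurod1*, *Neurod2* and *Neurod6*, factors of cortical and cerebellar neurons, averaged 0.075 FPKM or less.

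The pan-neuronal list had a median level of 70.3 FPKM and a median CV of 0.26, close to the 0.264 of protein-coding genes at 30 to 100 FPKM. The 4 genes of the GABA neuron list had a median CV of 0.191, and 1 was above the median of its neighbours in level. *Snap25*, of the vesicle fusion complex, read 525, 503, 417, 471 and 529.98 FPKM in WT 1 to WT 5, for a CV of 0.095 at percentile 0.5. Of the 14 pan-neuronal genes, all were over the limit, and 3 had a CV above the median of their neighbours in level, *Snhg11* (CV 0.55), *Meg3* (0.41), a long non-coding RNA, and *Tubb3* (0.29). *Syp* (synaptophysin) averaged 164 ± 23.5 FPKM and *Rbfox3* (NeuN) 14.3 ± 3.56.

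The GABA synthesis genes *Gad1* and *Gad2* differed in their order of libraries. *Gad1* read 75.3, 76.1, 94.1, 81.6 and 92.5 FPKM in WT 1 to WT 5, highest in WT 3, and *Gad2* read 78.7, 71.5, 54.7, 52.1 and 78.97 FPKM, highest in WT 5 and lowest in WT 4. The vesicular GABA transporter *Slc32a1* averaged 35.5 ± 12.5 FPKM and the vesicular glutamate transporter *Slc17a6* 13.4 ± 1.55, with *Slc32a1* higher in 5 of 5 libraries by 1.27 ± 0.585 on the log2(FPKM + 1) scale. *Slc17a6* read 11.2, 13.2, 12.9, 15 and 14.8 FPKM, a CV of 0.12 at percentile 2.5. The cortical transporter *Slc17a7* averaged 0.086 FPKM.

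The dopamine neurons of the ARC inhibit prolactin release. *Th*, the rate-limiting enzyme of dopamine synthesis, read 29.1, 34.1, 14.3, 23.1 and 39.5 FPKM and *Ddc* 23.8, 18.5, 8.95, 23.4 and 15.7, both lowest in WT 3, and *Slc18a2* and *Slc6a3*, the vesicular and plasma membrane transporters, averaged 8.44 ± 2.77 and 3.58 ± 2.201. *Chat* and *Tph2*, the synthesis enzymes for acetylcholine and serotonin, averaged 0.063 and 0.079 FPKM.

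The transcripts of the mitochondrial genome made up 12.9 ± 1.11% of the FPKM sum over protein-coding genes. This share was 14.58, 13.13, 11.84, 13.04 and 11.96% in WT 1 to WT 5. *mt-Co1*, a subunit of cytochrome oxidase, read 6374, 5109, 4894, 6539 and 6731 FPKM and was the steadiest at a CV of 0.14. Of the 12 measured genes, 11 were lowest in WT 3, where 36% of all protein-coding genes were lowest. The ribosomal RNAs *mt-Rnr1* and *mt-Rnr2* and *mt-Nd4l* were listed at 0 in all 5 libraries, although every cell transcribes them, so a 0 in this table need not mean that a gene was silent.

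Glycolytic transcripts were led by *Gapdh* at 514, 408, 445, 539 and 646 FPKM in WT 1 to WT 5, with 25 of 27 listed genes over 1 FPKM and 9 over 100 FPKM. *Aldoa* (396 ± 78.4) and *Aldoc*, the aldolase of astrocytes (375 ± 134), were not separated. *Ldhb* exceeded *Ldha* in 5 of 5 libraries, at means of 195 ± 55.1 and 99 ± 25.7 FPKM and a log2 ratio of 0.96 ± 0.18. *Hk1*, the common brain hexokinase, averaged 23.9 ± 7.57 FPKM, and *Slc2a1* exceeded the neuronal glucose transporter *Slc2a3* in 5 of 5 (0.87 ± 0.285).

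*Pfkp* and *Pfkm*, the platelet and muscle forms of phosphofructokinase, averaged 29.6 ± 2.17 and 30.3 ± 7.89 FPKM, and *Pfkp* had the smallest CV of the list at 0.073 (percentile 0.75). *Slc2a4* and *Slc2a2*, the muscle and liver glucose transporters, averaged 0.079 and 0.030 FPKM. The citric acid cycle and its links to amino acids had all 23 listed genes over 1 FPKM and 22 over 10 FPKM, led by *Mdh2* (193 ± 34.8) and *Glud1* (153 ± 38.4). Of these, 18 were lowest in WT 3, where 36% of all protein-coding genes were lowest. As a share of the protein-coding sum the list held 0.348, 0.347, 0.344, 0.386 and 0.412% in WT 1 to WT 5. Only 5 of the genes had a CV above the median of their neighbours in level, with *Dlst* (0.11) and *Cs* (0.12) among the smallest.

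In lipid metabolism, 32 of 33 genes passed. *Apoe*, the main brain apolipoprotein, averaged 625 ± 205 FPKM, and the desaturases *Scd2* and *Scd1* averaged 148 ± 21.3 and 37.98 ± 5.94, both with CVs under 0.17. *Cpt1c*, the brain form of carnitine palmitoyltransferase, exceeded *Cpt1a*, the liver form that admits fatty acids to mitochondria, in 5 of 5 libraries at 13.2 ± 4.33 against 2.39 ± 1.08 FPKM, and *Cpt1b* averaged 0.049. *Acaca* (18.9, 57.2, 12.5, 15.5 and 18.9 FPKM) exceeded *Acacb* (0.134, 0.632, 1.43, 0.772 and 4.64 FPKM) in 5 of 5. The difference was 3.36 ± 1.32 on the log2(FPKM + 1) scale, and the ratio of plain FPKM lay between 4.08 and 141. WT 2 carried the mean of *Acaca*, which makes malonyl-CoA and is inhibited by AMPK.

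The AMPK subunits averaged between 1.84 and 14.6 FPKM for those detected, on either side of the median of 7.47 FPKM over all genes described. *Prkag2*, which encodes γ2, read 14.1, 16.4, 7.73, 12.4 and 22.5 FPKM in WT 1 to WT 5 and *Prkag1*, γ1, 8.52, 9.43, 10.03, 11.02 and 9.21 FPKM. *Prkag2* exceeded *Prkag1* in 4 of 5 libraries and made up 62.4, 63.5, 43.5, 52.9 and 70.9% of their sum, with WT 3 the exception. *Prkag3*, the muscle form, was listed at 0 in every library. *Prkag1* was among the steadiest genes of its level, with a CV of 0.097 at percentile 1.25, against 0.37 and 63.5 for *Prkag2*.

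Of the catalytic subunits, *Prkaa1* (α1) read 4.43, 7.05, 8.29, 6.48 and 10.9 FPKM and exceeded *Prkaa2* (α2), at 3.01, 3.69, 2.59, 3.91 and 5.802 FPKM, in 5 of 5 libraries. The scaffold subunit *Prkab1* read 0, 15.1, 2.48, 5.85 and 9.79 FPKM and was listed at 0 in WT 1, and *Prkab2* averaged 1.84 ± 0.969. The upstream kinases *Stk11* (LKB1) and *Camkk2* averaged 30.4 ± 15.4 and 1.05 ± 0.615 FPKM. *Ucp2*, the uncoupling protein linked to ghrelin action in AGRP neurons, was the highest of the energy-sensing list at 425, 188, 213, 276 and 319 FPKM. *Ppargc1a* (47.1, 9.61, 13.7, 13.96 and 14.5 FPKM) and *Kcnj11*, the pore of the ATP-sensitive potassium channel (10.9, 3.49, 1.12, 2.396 and 4.45 FPKM), were highest in WT 1.

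Astrocyte transcripts were among the most abundant of any cell type, with all 25 listed genes over 1 FPKM and 10 over 100 FPKM. *Cst3* (cystatin C) read 2295, 2014, 1052, 1911 and 1249 FPKM in WT 1 to WT 5 and *Apoe* 839, 788, 375, 673 and 451, and these 2 kept nearly the same ratio in every library, with a log2 difference of 1.45 ± 0.059. The glutamate transporter *Slc1a2* exceeded *Slc1a3* in 5 of 5 libraries (1.60 ± 0.69). *Sparcl1* (CV 0.12), *Gja1* (0.12) and *Glul* (0.15) were steady, whereas *Gfap*, the intermediate filament of astrocytes, read 8.35, 22.9, 24.9, 8.96 and 30.02 FPKM (CV 0.52). *Mt3* read 7.41, 2.86, 17.6, 14.6 and 33.5 FPKM and was below *Mt1* (195 ± 51.5) in 5 of 5.

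Tanycyte markers differed between libraries in their own way. Apart from *Dbi*, an acyl-CoA binding protein of all glia at 868 ± 162 FPKM, they were led by *Gpr50* at 8.27, 39.3, 16.2, 100.3 and 42.9 FPKM, lowest in WT 1 and highest in WT 4. *Lhx2* read 1.19, 5.12, 5.32, 10.8 and 8.86 FPKM and *Ppp1r1b* 2.605, 0.263, 6.14, 12.4 and 5.72, both again highest in WT 4. Of the 21 markers over 1 FPKM, 10 were highest in WT 4, where 8.77% of protein-coding genes were highest, and 12 were lowest in WT 1, where 20.9% were. *Dio2*, the deiodinase of thyroid hormone, averaged 3.25 ± 1.73 FPKM and *Rax*, the defining homeobox factor, 1.298 ± 0.797. *Fndc3c1* (0.118, 1.99, 23.6, 10.98 and 1.53 FPKM) and *Col23a1* (3.37, 7.07, 20.9, 6.47 and 4.53 FPKM) were instead highest in WT 3.

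Ependymal markers were low, led by *Rarres2* at 21.3 ± 8.903 FPKM, and *Foxj1*, which drives motile cilia, averaged 1.95 ± 0.802. Of the microglial markers all 15 passed 1 FPKM and 6 passed 10 FPKM, and the summed level, lowest in WT 3, was 229, 204, 133, 218 and 179.7 FPKM in WT 1 to WT 5. As a share of the protein-coding sum they held 0.05045% in WT 3 against 0.05169 to 0.06499% in the other libraries. *C1qb* averaged 29.7 ± 10.2 FPKM and *P2ry12* 3.28 ± 1.18.

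Myelin transcripts divided the libraries. *Mbp* (myelin basic protein) read 113, 99.2, 224, 42.3 and 350.2 FPKM and *Mobp* 8.19, 7.25, 24.7, 1.97 and 39.8. WT 3 and WT 5 were above the other 3 libraries for both genes, and WT 4 was the lowest. Of 20 oligodendrocyte genes over 1 FPKM, 14 were highest in WT 5, where 29% of protein-coding genes were highest, and 16 had a CV above the median of their neighbours. *Cnp* (CV 0.27), *Qdpr* (0.19) and *Olig1* (0.39) varied less. The precursor markers *Pdgfra* and *Gpr17* were steady at 3.88 ± 0.506 and 5.44 ± 0.753 FPKM, with CVs of 0.13 and 0.14.

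The same pair of libraries was high in blood. *Hbb-b1*, a β-globin, read 41.8, 22.2, 240.3, 34.8 and 325 FPKM and *Hba-a1*, an α-globin, 11.3, 0, 67.6, 14.98 and 105, and the globin genes *Hba-a2* and *Hbb-b2* were also highest in WT 5 and next highest in WT 3. Reads on these near-identical globin copies may have been divided between them. The neutrophil genes *S100a8* and *S100a9* were listed at 0 except in WT 3, at 16.7 and 22.5 FPKM. The summed level of the 10 listed blood genes in the table was 83.4, 49.2, 444, 68.05 and 595 FPKM in WT 1 to WT 5.

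Some pituitary and meningeal transcripts were also higher in WT 3 or in both of these libraries. *Gh* (growth hormone) read 0, 0, 61.5, 0.139 and 64.5 FPKM and *Cga*, the α subunit of the glycoprotein hormones and a marker of the pars tuberalis, 0, 0, 50.2, 0 and 0.996. *Ptgds*, the prostaglandin D synthase of meninges and oligodendrocytes, read 45.2, 40.2, 1445, 47.5 and 167 FPKM and *Dcn*, of fibroblasts, 4.96, 1.98, 30.9, 6.58 and 11.4. Both were highest in WT 3 and second in WT 5. *Prl*, *Tshb*, *Lhb* and *Fshb* averaged 0.55, 0.33, 0.30 and 0.037 FPKM. Of the 7 pituitary genes over 1 FPKM, however, 4 were highest in WT 2, 2 in WT 3 and 1 in WT 5. The median pituitary gene deviated by -0.66, 0.51, -0.23, -0.54 and -0.12 on the log2(FPKM + 1) scale in WT 1 to WT 5. The summed level of the 14 listed pituitary genes was 13.95, 39.02, 135.6, 19.04 and 89.19 FPKM. The sum was thus high in WT 3 and WT 5, whereas the median pituitary gene was not. The median oligodendrocyte gene deviated by 0.12, -0.47, 0.10, -0.65 and 0.89, high in WT 5 alone. WT 3, the library with the lowest peptide values, was thus high in blood transcripts and in *Ptgds*, *Dcn*, *Gh*, *Cga*, *Mbp* and *Mobp*, some of them named with their values seen. WT 5 was high in blood, *Gh*, *Mbp* and *Mobp* as well, and its summed peptide level was between those of WT 4 and WT 2. The part of these tissues in the peptide values was not tested.

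The summed level and the median gene of the endothelial list did not follow this division, whereas its share of the protein-coding sum did. *Bsg* averaged 271 ± 48.4 FPKM, and *Ly6c1* (CV 0.20), *Pecam1* (0.19) and *Flt1* (0.24) varied little, while *Abcb1a* read 16.2, 1.86, 86.96, 0.895 and 1.17 FPKM, high in WT 3, and *Cldn5*, a tight junction gene, 1.58, 11.04, 6.31, 5.88 and 6.09. The summed endothelial level lay between 304 and 372 FPKM, much of it *Bsg*. As a share of the sum over protein-coding genes it was 0.0875, 0.0952, 0.127, 0.09055 and 0.107% in WT 1 to WT 5. This share was highest in WT 3 and next in WT 5. The median endothelial gene deviated by 0.13, -0.17, -0.04, -0.02 and 0.16 on the log2(FPKM + 1) scale.

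**Figure D3:**
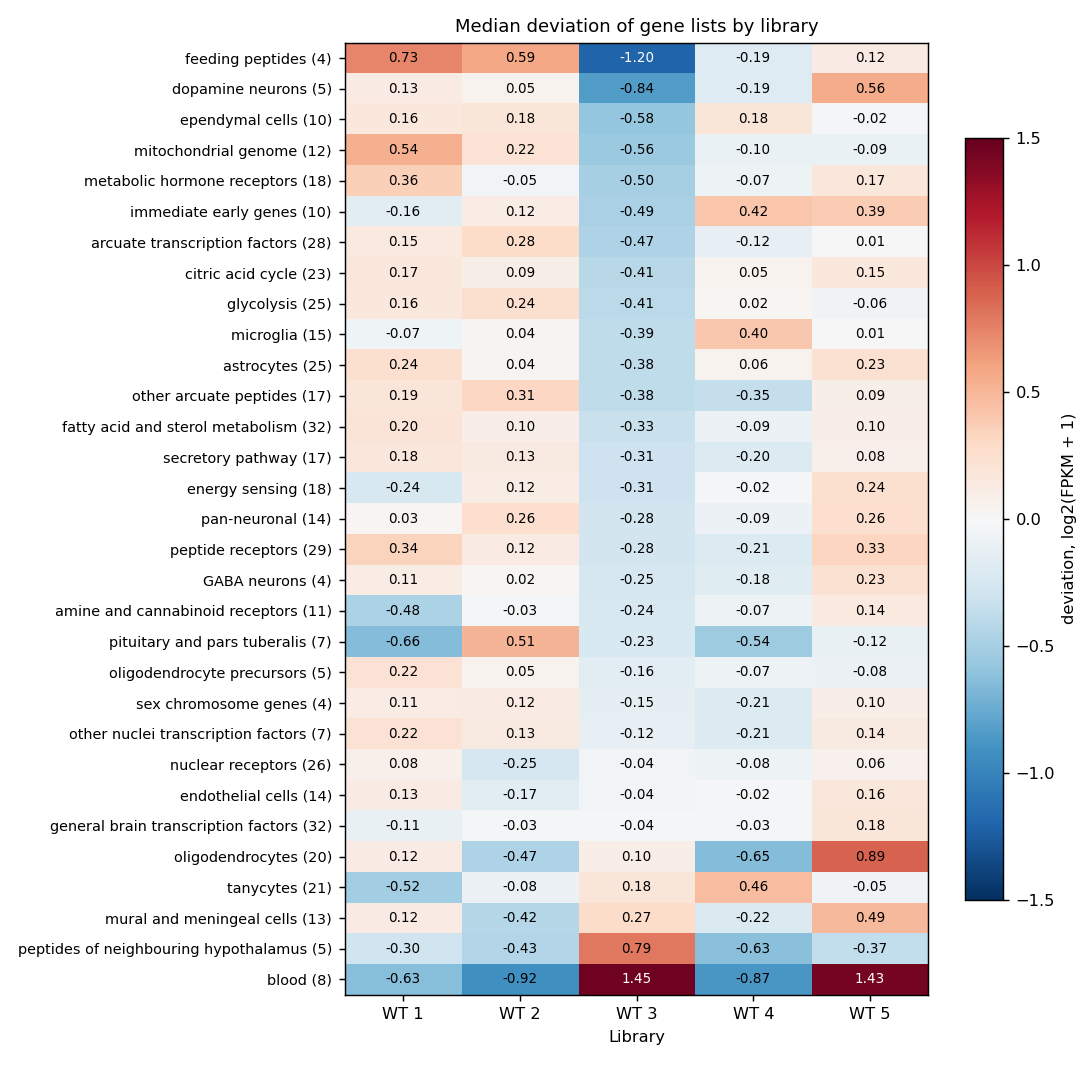
Median deviation of each gene list in each WT library from the genes' own 5-library means on the log2(FPKM + 1) scale, with the number of genes over 1 FPKM in brackets (lists of at least 4 genes). The feeding peptides reach -1.20 in WT 3 against -0.21 for all protein-coding genes, and blood reaches 1.45 in WT 3 and 1.43 in WT 5. In WT 3 the nuclear protein-coding genes of at least 10 FPKM deviated by -0.53 at 500 to 1000 nt and by -0.42 at 1000 to 2000 nt, the length classes of the feeding peptides.

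Of 17 immediate early genes, which respond to recent activity, 10 passed 1 FPKM and the list had a median of 2.94 FPKM. *Jun* averaged 17.6 ± 6.95 FPKM, *Egr1* 9.82 ± 5.83 and *Fos* 3.11 ± 3.52. *Fos* read 1.33, 9.06, 0.389, 3.48 and 1.29 FPKM and *Egr1* 8.299, 18.02, 2.38, 12.5 and 7.89, both highest in WT 2 with WT 4 next and both lowest in WT 3. *Arc*, *Npas4* and *Fosb* averaged 0.53, 0.75 and 0.31 FPKM.

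Over all genes described, the median CV was 0.376 and the median SD of log2(FPKM + 1) was 0.46, and for the protein-coding genes these were 0.353 and 0.44. The 10 genes of at least 50 FPKM with the smallest CVs ran from 0.041 to 0.087. They included *Epb4.1l1*, a membrane skeleton protein of neurons, at 56.99, 56.8, 61.7, 55.6 and 56.8 FPKM, *Spnb2*, a brain spectrin, at 87.99, 90.3, 80.6, 86.9 and 95.5 FPKM, *Hnrnpa2b1*, an RNA-binding protein, at 54.5, 56.6, 52.8, 59.9 and 62.5 FPKM and *Ndufs3*, of respiratory complex I, at 68.05, 66.8, 57.05, 66.8 and 58.96 FPKM. Of these genes *Epb4.1l1* was highest in WT 3 and the other 3 were lowest there.

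At that level 34 genes, of which 3 were protein-coding, tied for the largest CV, since each had a value in 1 library and 0 in the other 4, which gives the largest CV that 5 values allow, 2.24. The library was WT 1 for 11 of them, among them *AC160138.1* at 449 FPKM, WT 2 for 9, WT 3 for 5, WT 4 for 3 and WT 5 for 6. Among protein-coding genes of at least 50 FPKM with a transcript of 200 nt or more, the largest CVs included *Avp* (2.01), *Ptgds* (1.76), *Oxt* (1.74), *Cryz* (1.67), *Slc39a1* (1.35) and *Hbb-b1* (1.06).

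*Slc39a1*, a zinc transporter, read 181, 277, 3.41, 5.06 and 6.41 FPKM and *Cryz* (ζ-crystallin) 314, 58.8, 5.06, 5.06 and 15.5, so these 2 genes, named after their values were seen, were high in WT 1 and WT 2 and low in WT 3 to WT 5, the same division as the number of genes above 0. The non-coding *AL807811.2* and *AC115697.1* had the same division, at 1042290, 766370, 19996, 15779 and 19301 FPKM and 461633, 447959, 855, 209 and 578 FPKM.

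**Figure D4:**
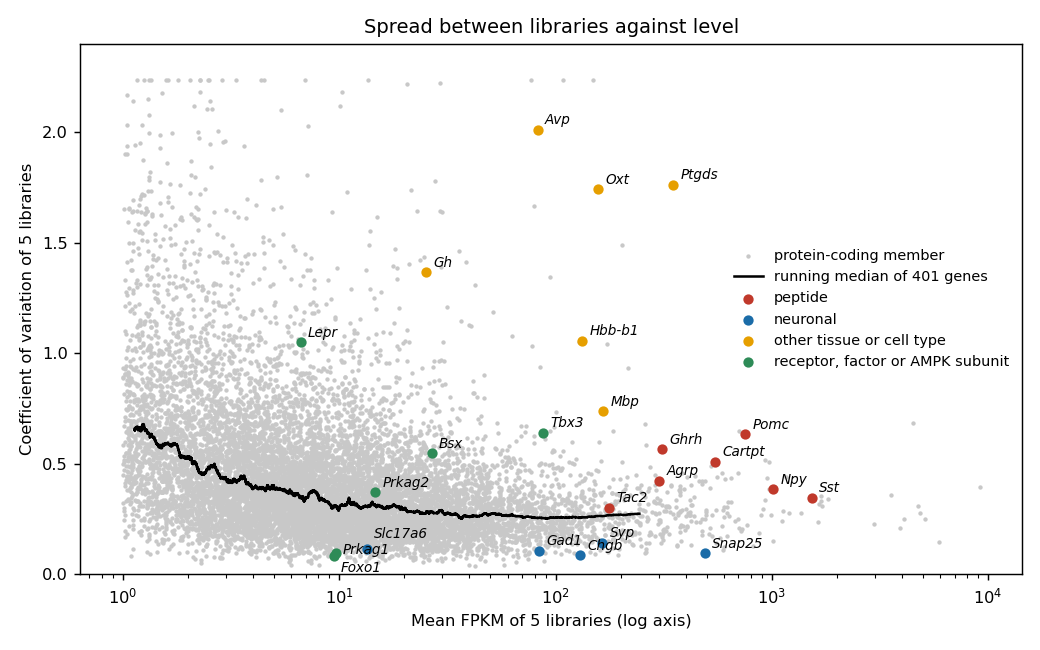
CV of the 5 libraries against mean FPKM (log axis) for the 11935 protein-coding genes, with a running median as a line and named genes in colour. *Gad1* and *Syp* lie under the line, *Tac2* lies over it, the other peptides shown lie beyond its right end at CVs from 0.35 (*Sst*) to 0.63 (*Pomc*), and *Avp*, *Oxt* and *Ptgds* lie near the top.

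Ratios of related transcripts within a library remove whatever scales both alike. Of 29 pairs, the first gene was higher in all 5 libraries in 13 and lower in all 5 in 7. For 20 the SD of the ratio was smaller than it would be if the 2 genes varied separately. No such share was computed for unrelated pairs, and shifts common to a whole library narrow the ratios of unrelated genes too. Whether the count is a trait of the chosen pairs therefore cannot be told. A sign that holds in 5 of 5 libraries has a two-sided exact p of 0.0625 at best, so these are descriptions. *Npy* to *Agrp* had log2 ratios of 1.66, 1.72, 1.5, 1.84 and 2.04 in WT 1 to WT 5 and an SD of 0.20 against 0.83 for separate variation, and *Sst* to *Npy*, described above, was as tight at an SD of 0.19. *Cartpt* to *Pomc* had an SD of 0.28 against 1.51 and *Tac2* to *Kiss1* of 0.30 against 0.80.

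The ratio of the opposed peptides was far less steady. The log2 ratio of *Agrp* to *Pomc* was -0.998, -1.96, -0.06, -0.39 and -2.05 in WT 1 to WT 5, so *Agrp* was below *Pomc* in every library but by between -0.06 in WT 3 and -2.05 in WT 5. *Npy* to *Pomc* was 0.66, -0.24, 1.43, 1.46 and -0.01, with *Pomc* the higher in WT 2 and WT 5. The balance of *Ghrh* to *Sst* was -2.29, -2.06, -2.86, -3.34 and -1.79, lowest in WT 4. WT 1 and WT 2 were the 2 highest libraries for both *Agrp* and *Pomc*.

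**Figure D5:**
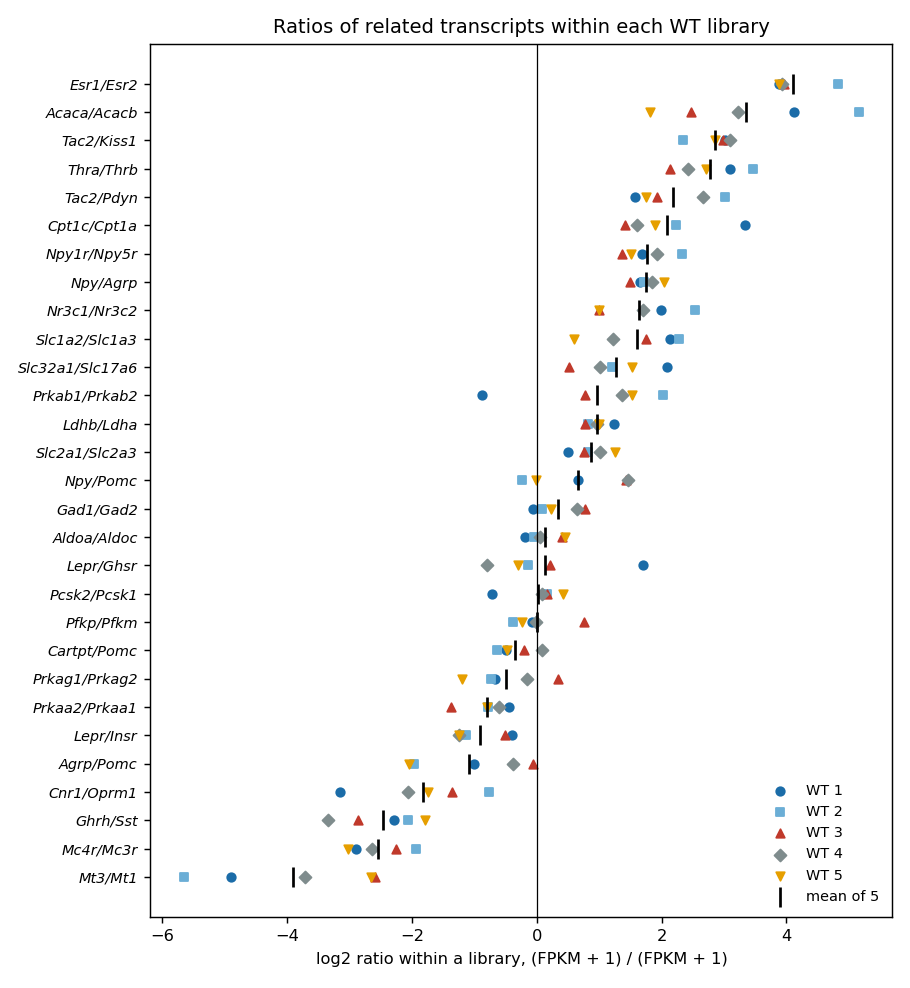
Log2 ratio of (FPKM + 1) for 29 pairs of related transcripts within each WT library, with a black tick for the mean of 5. *Npy* to *Agrp* keeps to between 1.5 and 2.04, whereas *Agrp* to *Pomc* runs from -2.05 to -0.06 and *Prkab1* to *Prkab2* is negative in WT 1 alone, where *Prkab1* is listed at 0.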

How the data were processed

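RNA of the laser-captured ARC was amplified with a NuGEN whole-transcriptome kit and sequenced on an Illumina HiSeq instrument. Per the labels, the submitters' processing notes name TopHat2 2.0.8, Cufflinks 2.2.1 and GRCm38, and the authors deposited 1 table of FPKM values per gene and library with no read counts, so the depth of each library is unknown and no counting interval is given. The 5 WT columns were used and the 7 Homo columns were not used here. No per-sample column was left unmatched to a sample.

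Means, SDs and CVs were computed from the values as deposited, and deviations and ratios on log2(FPKM + 1), a scale that understates changes of low genes, with Python 3.11.15, pandas 2.3.3, numpy 2.4.6, scipy 1.17.1 and matplotlib 3.10.9. The scripts were tested on simulated data. Gene types and transcript lengths came from GENCODE M21, which held 97.8% of the genes described, and positions and promoters from RefSeq GRCm38.p6. Of 581 symbols in 33 lists, 568 were in the table and 461 passed 1 FPKM.

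The genes, lists and pairs were chosen with earlier results of these data known. Genes were named by rule: the 15 with the highest mean, the markers *Agrp*, *Npy* and *Pomc*, up to 5 of each list by level, the smallest and largest CV of a list among genes of at least 10 FPKM, listed genes under the limit, the 10 smallest and largest CVs at 50 FPKM or more (the largest are tied), and the genes of the ratios. Other genes named were chosen with their values seen. No groups were compared. Dixon's ratio was computed for each named gene, and the smallest sign p that 5 libraries allow is given for the ratios. The values of some listed genes and of the ratios that use them are not reported here, though the counts over lists include them.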

Additional observations from a re-analysis of the deposited data

Results flagged for a closer look

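Of the 240 genes named, 45 (18.8%) had 1 library whose gap to the nearest other library, divided by the range of the 5, was over Dixon's critical value of 0.71, against 10.6% of all protein-coding genes. Some of the genes were named for a large CV or with their values seen, so the higher share among them follows from the choice. Chance alone gives such a gap in about 1 in 20 groups of normally distributed values. The ratio was taken on untransformed FPKM, so that rate need not hold here. Genes near 0 reach such a gap whenever they are listed above 0 in a single library.

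The library set apart was WT 1, and the highest, for 9 genes, with FPKM values there of *AC160138.1* at 449, *Crhr2* at 15.9, *Cryz* at 314, *Galr2* at 2.82, *Insr* at 25.3, *Lepr* at 19.0, *Lhx9* at 0.0718, *Ppargc1a* at 47.1 and *Stk11* at 57.2. The library set apart was WT 2, and the highest, for 11 genes, with FPKM values there of *Acaca* at 57.2, *Bsx* at 52.4, *Cnr1* at 15.7, *Crh* at 0.250, *Esr1* at 29.5, *Grp* at 9.17, *Mc4r* at 1.12, *Nr2f6* at 89.6, *Sstr4* at 9.53, *Tcf7l2* at 33.0 and *Trh* at 10.3. The library set apart was WT 3, and the highest, for 10 genes, with FPKM values there of *Abcb1a* at 87.0, *Cga* at 50.2, *Col23a1* at 20.9, *Epb4.1l1* at 61.7, *Fshb* at 0.184, *Lhb* at 1.32, *Nr5a1* at 0.0996, *Ptgds* at 1445, *S100a8* at 16.7 and *S100a9* at 22.5. The library set apart was WT 4, and the highest, for 2 genes, with FPKM values there of *Neurod2* at 0.0314 and *Slc2a4* at 0.341. The library set apart was WT 5, and the highest, for 12 genes, with FPKM values there of *Acacb* at 4.64, *Avp* at 380.1, *Chat* at 0.317, *Galp* at 14.4, *Neurod1* at 0.266, *Npy2r* at 25.96, *Oxt* at 646, *Prl* at 2.73, *Sim1* at 0.292, *Slc18a2* at 13.3, *Sstr2* at 7.01 and *Vip* at 0.526. The gap lay below the others for *Drd2* at 2.16 FPKM, in WT 3. Among the summed levels of whole lists, the peptide list of other hypothalamic nuclei stood apart in WT 5, at 1033.7 FPKM. The mural and meningeal list stood apart in WT 3, at 1576.1 FPKM, of which *Ptgds* alone held 1445 FPKM. Of the 13 mural and meningeal genes over 1 FPKM, 5 were highest in WT 3, 4 in WT 5, 3 in WT 1 and 1 in WT 4. The median such gene deviated by 0.27 in WT 3 and 0.49 in WT 5 on the log2(FPKM + 1) scale.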

How the results depend on the processing

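No paired analysis was possible because the description used 1 group and made no comparison. A limit of 5 FPKM in place of 1 left 8286 genes, a mean of at least 10 FPKM gave a median CV of 0.296, and a pseudocount of 0.1 gave a median SD of 0.55 on the log2 scale. Leaving out each library in turn gave between 13256 and 13428 genes, a median CV between 0.339 (without WT 1) and 0.384, and a median log2 SD between 0.41 and 0.48.

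Of 197 named genes over 1 FPKM, 37 had a mean that changed by over 1.5 times without 1 library. Without WT 5 the mean of *Avp* went from 82.7 to 8.39 FPKM and that of *Oxt* from 158 to 35.5, and those of *Acacb*, *Gh*, *Mobp* and 4 globin genes also fell by over 1.5 times. Without WT 3 *Ptgds* went from 349 to 74.99 FPKM, *Abcb1a* from 21.4 to 5.03 and *Cga* from 10.2 to 0.249, and *Cck*, *Col23a1*, *Dcn*, *Fndc3c1*, *Gh*, *Hdc* and *Rln3* fell likewise. Without WT 1 *Cryz* went from 79.7 to 21.1 FPKM and *Lepr* from 6.64 to 3.55, with *AC115697.1*, *AL807811.2*, *Crhr2*, *Kcnj11*, *Nr4a2* and *Ppargc1a* also lower. Without WT 2 *Nr2f6* went from 22.8 to 6.13 FPKM, with *AC115697.1*, *Cnr1*, *Fos*, *Grp* and *Slc39a1* also lower, and without WT 4 *Gnrh1* and *Gpr50* were lower. The means of *AC160138.1*, *Galp*, *S100a8* and *S100a9* rested on 1 library each.

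Leaving out each library in turn put *Npy* at ranks 56 to 63, *Pomc* at 71 to 94, *Cartpt* at 98 to 123 and *Agrp* at 199 to 241. With a pseudocount of 0.1, 2 of 29 ratios moved by more than 1 SD. Upper-quartile scaling moved 19 of 165 list deviations by more than 1 SD, and left WT 3 below 0 in 19 of 33 lists against 27 as deposited. The share held by each of the 33 lists moved when the sum was taken over protein-coding genes, an alternative chosen after seeing the data. With FPKM alone, values near 0 cannot be separated from absence, and WT 1 and WT 2 had the coarser low steps.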

Other observations

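Among the short RNAs left out by symbol, *Mir5105* was the most abundant, at 3529070, 3330150, 9481770, 3756860 and 6712470 FPKM in WT 1 to WT 5, a level between those of *Gm12563* and *Gm15662*. WT 3 was the highest library for it and WT 2 the lowest.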
